A study of Mus musculus with 6 samples.

Results

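Nuclear receptors are transcription factors that many lipid-soluble hormones and metabolites switch on or off, and coregulators are the proteins they recruit to raise or lower transcription. The 35 genes described here, 28 receptors and 7 coregulators, were taken by symbol from a table of 19251 genes measured by RNA-seq in mouse substantia nigra, the part of the midbrain whose dopamine neurons are lost in Parkinson's disease. All 35 were in the table and all 35 passed the filter on low counts, as did 19109 genes in all. C57BL/6 mice in both groups had surgery and carried rAAV-A53T-aSynuclein, a recombinant adeno-associated virus with a mutant form of alpha-synuclein. From 2 weeks after surgery the ad libitum group (AL) had food at all times, and the intermittent fasting group (IF) went without food for 24 hours on 3 days of each week. Both diets lasted 10 weeks, both groups were moved between cages on the same schedule, and each gave 3 libraries. The sources used here do not give the age of the mice, the promoter of the vector, any pooling of animals or the time from the last fast to tissue collection. No group without the vector was analysed here, so the values compare diets within the alpha-synuclein model only.

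Most of these receptors share a zinc-finger domain that reads short DNA hexamers related to AGGTCA and a second domain that binds the ligand. Many, including the retinoic acid, thyroid hormone, vitamin D, LXR and PPAR receptors, work as pairs with a retinoid X receptor. In general, without ligand such pairs hold corepressors such as NCOR1, and with ligand they exchange them for coactivators of the NCOA family and for MED1, the Mediator subunit that links receptors to RNA polymerase. In the brain, thyroid hormone and retinoic acid receptors are known for their part in development and myelination, LXR and PPAR for lipid handling, and COUP-TF and ROR factors for regional neuron identity.

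Total estimated counts ran from 42990234 to 48179706 per library, and the 35 genes held 0.182% to 0.223% of them. Levels are given as CPM, counts scaled to library size with TMM factors. Of the 10 dopamine neuron markers, all were detected in every library, with summed levels of 769 to 1958 CPM under AL and 728 to 1354 CPM under IF. Over the 35 genes, the median absolute log2 difference between AL libraries was 0.31 for replicates 1 and 2, 0.18 for 1 and 3 and 0.14 for 2 and 3. Between IF libraries it was 0.15 for replicates 1 and 2, 0.14 for 1 and 3 and 0.086 for 2 and 3, so AL replicates 2 and 3 were closer than IF replicates 1 and 2. AL replicate 2 also held the highest summed cholinergic (95.1 CPM), hypothalamic (570.1 CPM) and forebrain neuron markers (762 CPM). Whether libraries came from separate animals is not in the labels, so p-values measure only the spread between these samples.

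No receptor or coregulator passed the test for a difference between diets. Of the 35 genes, 0 were called by edgeR at an adjusted p below 0.05, where 0.497% of all tested genes were called. DESeq2, which called 7.26% of the genes it tested, also called 0 of the 35. By DESeq2, 8 of the 35 (22.9%) had an unadjusted p below 0.05, against 18.8% of all genes it tested. At an unadjusted p below 0.05 in edgeR stood 7 of the 35 genes, or 20%, against 20.4% of all tested genes. Of these, 2 were higher under IF, against a background of 8.74%, and 5 were lower, against 11.6%. The members' share was thus near that of the table as a whole.

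In 12 of the 35 genes the AL and IF libraries did not overlap in CPM, which held for 27.5% of all tested genes. IF was the higher group in 2 of these, where the background was 12.5%, and the lower group in 10, where the background was 15%. The median log2 fold change of the 35 genes, IF minus AL throughout, was 0.0028 against -0.0050 over all tested genes, with 17 genes below 0 and 18 above. The median size was 0.15 for both. For 21 of the 35 genes, or 60%, the 95% interval of the fold change lay within 1.5-fold in either direction, against 57.6% of all tested genes. For the other members a change of 1.5-fold was not outside the interval, and the missed threshold does not show equal levels.

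**Figure D1:**
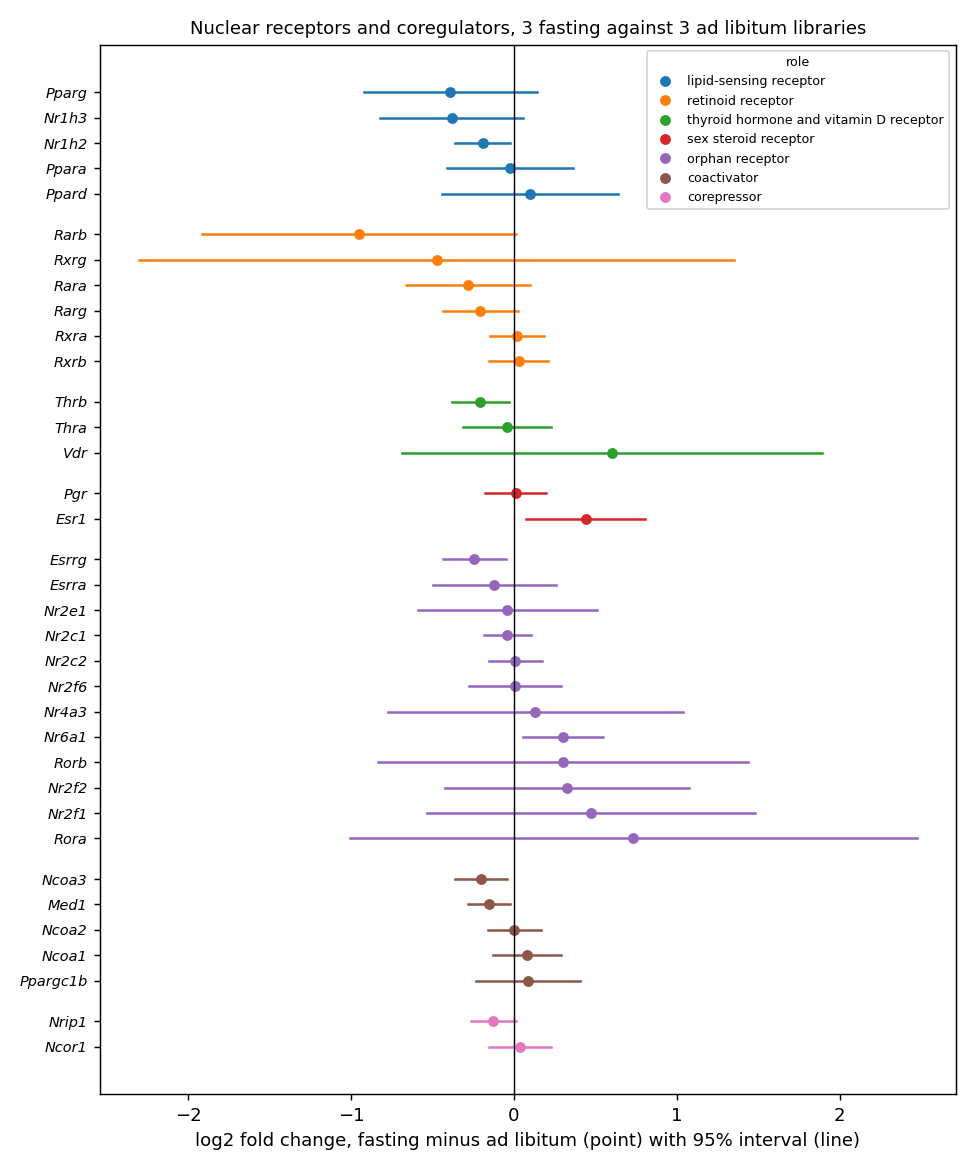
Log2 fold change (IF minus AL, x axis) of each of the 35 genes with its 95% interval, grouped by role; n = 3 libraries per diet. Coregulators have mostly narrow intervals near 0, with those of Ncoa3 and Med1 wholly below 0. Rxrg, Rora, Vdr, Rorb, Nr2f1 and Rarb have the widest ones. Before adjustment 7 intervals exclude 0, and none of the genes was called.

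Among the lipid-sensing receptors, Nr1h2 and Nr1h3 encode LXR beta and LXR alpha, which respond to oxysterols and drive cholesterol efflux. Nr1h2 was at 48.02, 50.8 and 46.2 CPM in AL replicates 1, 2 and 3 and at 38.9, 44.8 and 43.2 CPM in IF replicates 1, 2 and 3. All IF libraries lay below all AL libraries, by a small margin. The means were 48.3 ± 2.33 and 42.3 ± 3.05 CPM (SD, n = 3). The log2 fold change was -0.19 (SE 0.071, edgeR adjusted p = 0.195). Nr1h3 was at 3.01, 2.25 and 2.76 CPM under AL and at 1.98, 2.40 and 1.77 CPM under IF. Here IF replicate 2 lay above AL replicate 2, so the groups overlapped, and the log2 fold change was -0.38 (SE 0.19, edgeR adjusted p = 0.306).

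The 3 PPAR genes encode receptors for fatty acids and their derivatives. Ppara, known for driving fatty acid oxidation in the fasted liver, was at 2.84 ± 0.109 CPM under AL and 2.80 ± 0.490 CPM under IF (SD, n = 3), with a log2 fold change of -0.02 and an interval from -0.41 to 0.36. Pparg, the receptor of adipocytes and macrophages, was low, with 29 to 55 counts per library (log2 fold change -0.39, edgeR adjusted p = 0.378). Its groups were separated only by a hair, with 0.847 CPM in AL replicate 2 and 0.841 CPM in IF replicate 1. Ppard, the most widely expressed PPAR, was at 40.5, 22.9 and 24.7 CPM under AL and at 33.0, 30.1 and 31.1 CPM under IF. The IF libraries lay close together between AL replicate 1, which was high, and the other AL libraries. Ppard was the 1 of 35 genes called in a fit that left out AL replicate 1, where 6.18% of all tested genes were called (log2 fold change 0.40, edgeR adjusted p = 0.0327). With all libraries its log2 fold change was 0.10 (SE 0.22, edgeR adjusted p = 0.839), and without AL replicate 2 it was -0.06, so its sign depended on which AL library was left out.

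Among the retinoid receptors, Rarb (retinoic acid receptor beta) had the largest absolute log2 fold change of the 35 genes. In much of the body retinoic acid itself induces this gene, through a response element just ahead of one of its start sites. The upstream part of the promoter that RefSeq gives for Rarb on GRCm38.p6 is shown here because it carries a match to that arrangement; it spans chr14:16575477-16575626 on the minus strand and runs from 150 bases before the start site to the base before it. Capitals mark a direct repeat of 2 receptor hexamers with 5 bases between them, from -53 to -37.
Rarb upstream: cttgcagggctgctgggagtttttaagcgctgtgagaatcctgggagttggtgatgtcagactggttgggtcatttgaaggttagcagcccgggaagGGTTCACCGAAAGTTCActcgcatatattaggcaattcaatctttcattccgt

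Promoter windows from 250 bases before to 50 after the start site were searched on both strands for direct repeats of receptor hexamers (the letters AGGTCA, or the variant AGTTCA, or the variant GGGTCA, or lastly GGTTCA) with 0 to 5 bases between them, and for 3 single motifs. RefSeq held 51 such windows for 31 of the 35 genes, and the missing ones were Thra, Ncoa2, Ncoa3 and Ppargc1b. Rarb was the only one of the 31 with a match of any of these spacings. A spacing of 5, the arrangement that RAR and RXR pairs are known to bind, occurred in 32 of all 32851 windows (0.0974%). The single hexamer AGGTCA, which other searched repeats can contain, was found in windows of 7 genes (Nr6a1, Pparg, Rara, Rarg, Rxra, Rxrg and Thrb), in 15.7% of the 51 windows against 16.3% of all windows. GGTTCA was found in 13.7% against 10.4%, and the extended hexamer TCAAGGTCA in 0 of the 51 against 0.423%. These are matches of letters and not measured binding.

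Rarb was at 9.34, 23.8 and 10.2 CPM under AL and at 6.73, 7.24 and 8.42 CPM under IF. AL replicate 2 stood far above the rest, and the other AL libraries also lay above all IF libraries, so the groups did not overlap. The means were 14.4 ± 8.11 and 7.46 ± 0.868 CPM (SD, n = 3), which gave a log2 fold change of -0.95 (SE 0.39) and an interval from -1.91 to 0.01 (edgeR adjusted p = 0.251, DESeq2 adjusted p = 0.0580). Without AL replicate 2 the log2 fold change was -0.39 (SE 0.12, edgeR adjusted p = 0.181), the smallest size over the fits that left out 1 library. On the opposite strand, 35.7% of the annotated Rarb sequence overlaps other genes, mainly Top2b, and the sources used here do not say whether counting used strand. Top2b itself was at 105.8 to 111 CPM under AL and 100.8 to 106.8 CPM under IF, highest in AL replicate 2 by a small margin (log2 fold change -0.05, edgeR adjusted p = 0.642).

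Rarg and Rara, the other retinoic acid receptors, had smaller differences in the same direction. Rarg was at 7.83, 8.40 and 9.17 CPM under AL and 6.98, 7.68 and 7.38 CPM under IF, without overlap (log2 fold change -0.21, SE 0.097, edgeR adjusted p = 0.294). Rara was at 8.21, 6.63 and 8.27 CPM under AL and 5.09, 6.70 and 7.21 CPM under IF. AL replicate 2 was the lowest AL library for Rara and lay below IF replicates 2 and 3, the reverse of its place for Rarb (log2 fold change -0.28, SE 0.16, edgeR adjusted p = 0.374).

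The retinoid X receptors, the shared partners of many other receptors, split by gene. Rxra and Rxrb were near level: Rxra was at 45.8 ± 2.78 and 46.4 ± 2.69 CPM and Rxrb at 46.7 ± 4.59 and 47.7 ± 0.890 CPM under AL and IF (SD, n = 3), with intervals from -0.14 to 0.18 and from -0.15 to 0.21. Rxrg was at 3.20, 20.4 and 4.96 CPM under AL and at 6.23, 7.01 and 7.34 CPM under IF. AL replicate 2 was again far above all others, while the other AL libraries lay below all IF libraries. Its log2 fold change was -0.47 (SE 0.72, edgeR adjusted p = 0.752) with all libraries and 0.74 (SE 0.20, edgeR adjusted p = 0.142) without AL replicate 2, so that library set the sign.

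Thyroid hormone receptor beta, Thrb, was at 24.8, 26.9 and 22.9 CPM under AL and 21.1, 21.3 and 22.3 CPM under IF. The groups did not overlap, though AL replicate 3 and IF replicate 3 were close. The log2 fold change was -0.21 (SE 0.074, edgeR adjusted p = 0.186). Thra, which encodes the main thyroid hormone receptor of brain, was at 322, 443 and 395 CPM under AL and 359, 384 and 383 CPM under IF, with the IF libraries inside the AL range. Per kilobase of the longest coding transcript Thra was the highest of the 35 genes at 158 ± 24.8 CPM per kb under AL (SD, n = 3), against 4.01 ± 0.321 for Thrb and 26.8 ± 6.31 for Esrra, the next highest under AL. Under IF the next highest was Rora, at 33.4 ± 10.3 CPM per kb. Vdr, the vitamin D receptor, was the lowest, with 5 to 29 counts per library. Its log2 fold change of 0.60 had an interval from -0.69 to 1.89, so no difference was detected. The AL libraries alone held 25, 13 and 5 counts, and the parts of depth and of spread between libraries were not tested.

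Of the sex steroid receptors, Esr1 (estrogen receptor alpha) was at 2.67, 3.72 and 2.93 CPM under AL and 4.14, 4.18 and 4.33 CPM under IF. All IF libraries lay above all AL libraries and close to each other. The means were 3.10 ± 0.547 and 4.22 ± 0.0991 CPM (SD, n = 3), 1.36-fold higher under IF. Its log2 fold change was 0.44 (SE 0.15, edgeR adjusted p = 0.178). Pgr, the progesterone receptor, which estrogen induces in several tissues, was at 26.3 ± 1.42 and 26.5 ± 2.15 CPM (SD, n = 3), with a log2 fold change of 0.01 and an interval from -0.18 to 0.20.

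**Figure D2:**
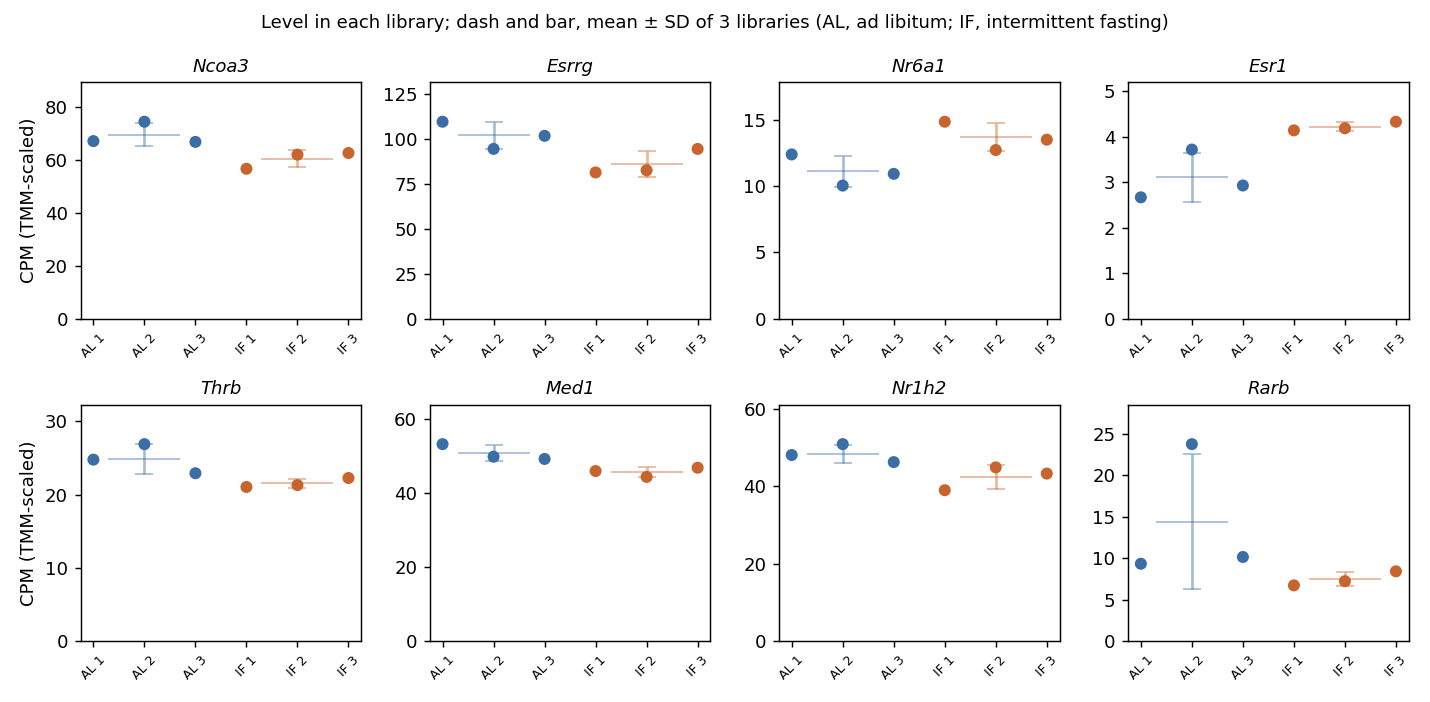
CPM (y axis, from 0) in each library for the 7 genes of smallest p and for Rarb; dash and bar show mean ± SD of 3 libraries. The diets do not overlap in any of the 8 panels, with the narrowest gap in Esrrg (94.50 against 94.48 CPM), and in Rarb AL replicate 2 stands alone at 23.8 CPM.

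Among the orphan receptors, Esrrg and Esrra are estrogen-related receptors, which act with PGC-1 proteins on mitochondrial genes. Esrrg was at 109.6, 94.50 and 101.8 CPM under AL and 81.4, 82.6 and 94.48 CPM under IF. AL replicate 2 and IF replicate 3 were nearly equal, so the groups were separated by a hair. The log2 fold change was -0.24 (SE 0.082, edgeR adjusted p = 0.170). Esrra was at 76.5, 51.7 and 52.3 CPM under AL and 57.1, 54.5 and 54.5 CPM under IF, where AL replicate 1 alone was high. Its log2 fold change was -0.12 with all libraries and 0.09 without AL replicate 1 (edgeR adjusted p = 0.705 and 0.318).

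Nr6a1, the germ cell nuclear factor, a repressor known from embryo and germ line, was at 12.4, 10.0 and 10.9 CPM under AL and 14.8, 12.7 and 13.5 CPM under IF. IF was higher without overlap, with AL replicate 1 just under IF replicate 2. Its log2 fold change was 0.30 (SE 0.10, edgeR adjusted p = 0.178). Nr6a1 and Esr1 were the 2 genes with the IF libraries all above the AL libraries. The testicular receptors Nr2c1 and Nr2c2 were steady. Nr2c1 spanned only 13.6 to 14.4 CPM over the 6 libraries, so the groups were separate at nearly equal levels (log2 fold change -0.04, edgeR adjusted p = 0.755). Nr2c2 was at 124 ± 6.29 and 125.1 ± 8.22 CPM (SD, n = 3), and 31% of its sequence overlaps genes on the other strand, mainly Mrps25. Nr2f6 was at 24.0 ± 4.06 and 24.1 ± 1.02 CPM (SD, n = 3), with 47.5% of its sequence overlapped on the other strand by Ocel1.

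Rora, Rorb, Nr2f1, Nr2f2, Nr4a3 and Nr2e1 differed mainly between single libraries, and were described for this after their values were seen. Rora, a receptor known from thalamus, cerebellum and the circadian clock, was at 426, 67.7 and 162 CPM under AL and at 486, 266.1 and 337 CPM under IF. AL replicate 2 was far the lowest, while AL replicate 1 was second only to IF replicate 1. The log2 fold change was 0.73 (SE 0.69, edgeR adjusted p = 0.601), and it was 1.66 without AL replicate 1 and 0.30 without AL replicate 2.

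Rorb, its relative, was at 55.4, 17.1 and 29.98 CPM under AL and 51.3, 33.3 and 41.6 CPM under IF. Nr2f1 and Nr2f2 encode COUP-TF I and II, which pattern neurons and vessels. Nr2f1 was at 75.7, 29.4 and 41.3 CPM under AL and 83.5, 49.8 and 70.0 CPM under IF, and Nr2f2 at 70.7, 36.2 and 38.9 CPM under AL and 65.0, 48.5 and 69.5 CPM under IF. In all of these AL replicate 2 was lowest and AL replicate 3 next lowest, while AL replicate 1 lay among the highest. The log2 fold changes with all libraries were 0.30, 0.47 and 0.33 (edgeR adjusted p = 0.746, 0.559 and 0.591), and without AL replicate 2 they were -0.03, 0.20 and 0.15.

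The summed level of 6 thalamic neuron markers was also lowest in AL replicate 2. It was at 1516, 308.5 and 713 CPM in AL replicates 1, 2 and 3 and at 1578, 1123 and 1198 CPM in IF replicates 1, 2 and 3. The 6 libraries stood in the same order for this sum as for Rora and for Nr2f1, while Rorb matched it at 4 of 6 ranks and Nr2f2 at 3. Prkcd made up much of the sum, with 714 CPM in AL replicate 1 and 15.2 CPM in AL replicate 2. Each of the 6 markers was lowest in AL replicate 2, but their orders differed otherwise: Calb2 was second lowest in AL replicate 1 (91.6 CPM) and Tcf7l2 second highest in AL replicate 3 (201.7 CPM). Orders of 8 receptors were set beside 14 marker lists, 112 pairs in all, and the only other full match was Rarb with the summed microglia markers. All 6 markers were detected in every library, and some, such as Slc17a6 and Calb2, are also known from midbrain neurons. The part of tissue composition in these values was not tested. In bulk tissue, fewer cells of a type and less RNA per cell cannot be told apart.

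Nr4a3, which neuronal activity induces, and Nr2e1 (Tlx), known from neural stem cells, were highest in AL replicate 2, as were Rarb and Rxrg. Nr4a3 was at 6.88, 12.9 and 4.96 CPM under AL and 10.7, 7.12 and 9.30 CPM under IF. Nr2e1 was at 5.63, 8.49 and 4.51 CPM under AL and 5.96, 5.50 and 6.65 CPM under IF. The summed level of 10 forebrain neuron markers was 256.2, 762 and 174 CPM under AL and 239, 185 and 256.1 CPM under IF, so it too was highest in AL replicate 2. So were the cholinergic, hypothalamic, oligodendrocyte, oligodendrocyte precursor, microglia, pericyte and choroid plexus sums, by margins of unlike size. The forebrain sum there was far above the next highest library, AL replicate 1. The cholinergic sum was 95.1 CPM against 19.4 CPM in IF replicate 3, and the hypothalamic sum 570.1 CPM against 179.9 CPM in IF replicate 2. Margins were small for microglia (556.5 CPM against 519.2 CPM in AL replicate 3) and pericyte sums (219.6 CPM against 219.1 CPM in AL replicate 1). Nr4a3 matched the cholinergic and hypothalamic sums at 4 of 6 ranks and the forebrain sum at 3. The part of any of these sums in the levels of these 4 receptors was not tested.

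**Figure D3:**
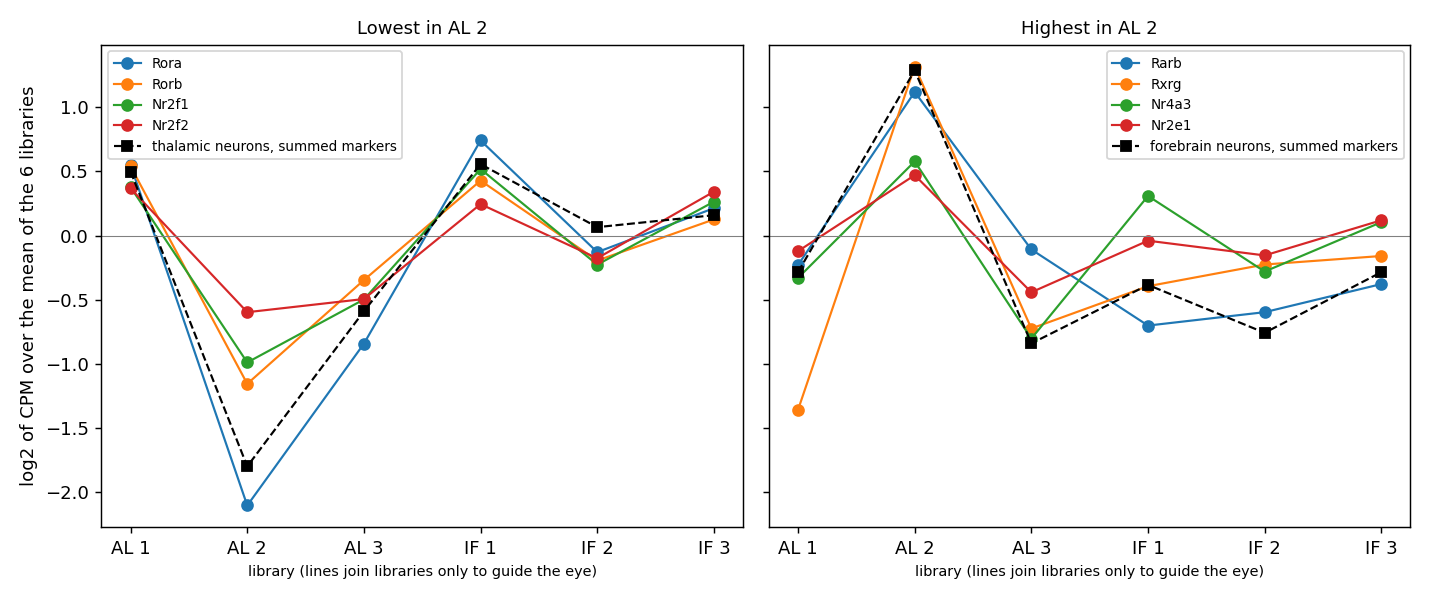
Log2 of CPM over the mean of the 6 libraries (y axis) for 4 receptors lowest in AL replicate 2 with summed thalamic markers (left) and 4 receptors highest there with summed forebrain markers (right). The 3 AL libraries span more than the 3 IF libraries for each of the 8 receptors, with Rora at 67.7 CPM and Rxrg at 20.4 CPM in AL replicate 2.

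Spread within a diet was wider under AL for most of these genes. The highest AL library exceeded the lowest by more than 2-fold in 7 of the 35 genes (Rarb, Rxrg, Rora, Rorb, Nr2f1, Nr4a3 and Vdr), or 20%, against 12.3% of the 19021 genes with counts in every library. No member had such a span among the IF libraries, where 7.03% of those genes did. The AL span was the wider one in 27 of the 35 genes (77.1%), against 67.5%. The widest were Rxrg at 6.38-fold and Rora at 6.28-fold under AL, against 1.18-fold and 1.83-fold under IF. This is a description of 3 libraries against 3, and no test of the difference in spread was made.

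**Figure D4:**
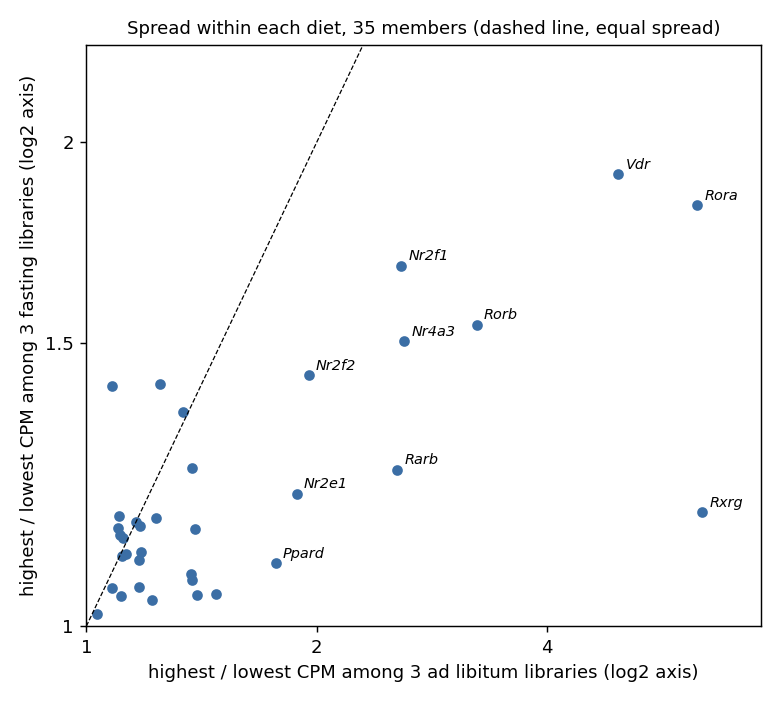
Highest over lowest CPM among the 3 AL libraries (x axis, log2) and among the 3 IF libraries (y axis, log2) for each of the 35 genes. Of these, 27 lie to the right of the dashed line of equal spread; Rxrg (6.38-fold) and Rora (6.28-fold) are farthest right.

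Coregulators varied little. Ncoa3, a p160 coactivator that brings histone acetyltransferases to receptors, had the smallest p of the 35 genes. It was at 67.3, 74.6 and 67.0 CPM under AL and 56.8, 62.1 and 62.8 CPM under IF, with all IF libraries lower. The means were 69.6 ± 4.32 and 60.6 ± 3.28 CPM (SD, n = 3), 13% lower under IF. Its log2 fold change was -0.20 (SE 0.067, edgeR adjusted p = 0.165). Its relatives Ncoa1 and Ncoa2 overlapped between diets, with log2 fold changes of 0.08 and 0.0028 and intervals from -0.13 to 0.29 and from -0.16 to 0.17. Ncoa3 was not tested against them.

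Med1 was at 53.2, 49.8 and 49.2 CPM under AL and 46.0, 44.4 and 46.8 CPM under IF, again with all IF libraries lower (log2 fold change -0.15, SE 0.054, edgeR adjusted p = 0.187). Ppargc1b, the PGC-1 beta coactivator of estrogen-related receptors, was at 10.1 ± 1.76 and 10.7 ± 0.750 CPM (SD, n = 3). Of the corepressors, Nrip1 (RIP140), which limits metabolic receptor targets, was at 34.6, 37.1 and 33.4 CPM under AL and 32.9, 31.5 and 31.9 CPM under IF. The groups did not overlap, and AL replicate 3 was close to IF replicate 1 (log2 fold change -0.13, SE 0.060, edgeR adjusted p = 0.295). Ncor1 was at 192 ± 17.1 and 196 ± 10.5 CPM (SD, n = 3), with an interval of the log2 fold change from -0.15 to 0.23.

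Other genes of these pathways were read from 10 lists, with 165 tested genes that exclude the 35. Of these, 0 were called by edgeR (smallest adjusted p = 0.0663), where 0.497% of all tested genes were. DESeq2 called 10 of them, and 7.26% of all genes it tested. In edgeR 34 (20.6%) had an unadjusted p below 0.05, against 20.4% of all tested genes. Without AL replicate 1, quoted below for single lists, 6.18% of all tested genes were called and 27.4% had an unadjusted p below 0.05. Without AL replicate 2, 0.235% were called and 18.5% had an unadjusted p below 0.05. The latter share was 16.7% without AL replicate 3 and 12.8%, 17.5% and 13% without IF replicates 1, 2 and 3. List counts below for fits without 1 library are to be read beside these shares. Among LXR targets, 9 of 14 had an unadjusted p below 0.05, all lower under IF, where 11.6% of all tested genes were lower at that p, and the list median was -0.26. Scd2 and Scd1, fatty acid desaturases, were at 2908 ± 287 and 522 ± 46.8 CPM under AL and 2268 ± 73.6 and 433 ± 7.11 CPM under IF (SD, n = 3), with log2 fold changes of -0.36 and -0.27 (edgeR adjusted p = 0.0856 and 0.118). Apoe, the main lipid carrier of brain, was at 1585 ± 207 and 1345 ± 11.1 CPM (log2 fold change -0.24), and the cholesterol exporter Abca1 at 110.0 ± 16.9 and 88.0 ± 5.61 CPM (log2 fold change -0.32), both named after their values were seen. The count of LXR targets lower at an unadjusted p below 0.05 was 4 without AL replicate 2, AL replicate 3, IF replicate 1 or IF replicate 2, and 5 without IF replicate 3. Without AL replicate 1 it was 8, with 2 others higher, and 4 genes of the list were called (Apoe, Abca1, Srebf1 and Scd2). Glial markers moved with this list: 10 mature oligodendrocyte markers summed to 13890 to 18900 CPM under AL and 9800 to 12280 CPM under IF. The sum of 10 microglia markers was 409 to 556.5 CPM under AL and 314 to 322 CPM under IF. Oligodendrocyte precursor markers summed to 967 to 1210 CPM under AL and 665 to 817 CPM under IF. Astrocyte markers summed to 3669 to 4623 CPM under AL and 3345 to 3617 CPM under IF. None of these markers was at 0, and their part in the LXR target levels was not tested.

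Of 16 genes for retinoic acid synthesis, binding, breakdown and response, 3 had an unadjusted p below 0.05, all lower under IF (18.8% of the list, against 11.6% of all tested genes), and the list median was -0.32. The count of lower genes was 7 without AL replicate 1, with 3 called, and 2 without AL replicate 2. It was 1 without AL replicate 3, IF replicate 1 or IF replicate 3, the last with 1 gene higher. Crabp2, which carries retinoic acid to its receptors, was at 0.910, 2.56 and 3.33 CPM under AL and 0.568, 0.624 and 0.576 CPM under IF. All IF libraries were lower, and AL replicate 1 was nearest to them (log2 fold change -1.94, SE 0.47, edgeR adjusted p = 0.0969). Aldh1a2, a retinoic acid synthase, was at 8.36 ± 4.19 and 3.77 ± 1.13 CPM (SD, n = 3), and its highest library was AL replicate 3 at 13.0 CPM, not AL replicate 2 as for Rarb. The list median was -0.16 without AL replicate 2 and -0.08 without AL replicate 3.

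Of 15 genes of thyroid hormone transport, conversion and response, 4 were lower at an unadjusted p below 0.05 (26.7%, against 11.6% of all tested genes). Without AL replicate 1 this was 6 lower and 2 higher, with 2 called. It was 3 lower and 1 higher without AL replicate 2 or IF replicate 2, 1 lower without IF replicate 1 and 2 lower without IF replicate 3. The list median was -0.30 with all libraries and 0.03 without AL replicate 2. The lipogenic regulator Thrsp had a log2 fold change of -0.30 (SE 0.099), and edgeR gave it an adjusted p of 0.159. The myelin gene Mbp in this list is also a mature oligodendrocyte marker, and 3 of the 15 genes stand in some marker list. The summed mature oligodendrocyte markers, at 13890 to 18900 CPM under AL and 9800 to 12280 CPM under IF, were lower along with Mbp, and their part in this list was not tested. Hr and Klf9, direct thyroid hormone targets, were at 55.7 ± 11.04 and 193 ± 19.4 CPM under AL and 69.0 ± 12.3 and 199 ± 16.9 CPM under IF (SD, n = 3), both overlapping between diets.

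Of 24 PPAR targets, 1 was higher and 2 were lower at an unadjusted p below 0.05, with a median of -0.11, where 8.74% of all tested genes were higher and 11.6% lower. Without AL replicate 1 it was 2 higher and 5 lower, with 1 called, and without AL replicate 2 it was 1 and 1. Without AL replicate 3 it was 2 and 1, without IF replicate 1 it was 0 and 2, without IF replicate 2 it was 2 and 2, and without IF replicate 3 it was 0 and 3. Hadha, of mitochondrial fatty acid oxidation, was at -0.22 on the log2 scale and the thioesterase gene Acot2 at -0.48 (edgeR adjusted p = 0.133 and 0.172), with 37.3% of the Acot2 sequence shared with its neighbours in the family. Of 14 ERR and PGC-1 targets, 2 were lower, Vegfa (-0.38) and Gabpa (-0.23), with edgeR adjusted p = 0.0663 and 0.174. Without AL replicate 1 it was 2 higher and 2 lower, with 1 called, and 1 was lower without AL replicate 3, IF replicate 1 or IF replicate 2. Of 10 clock genes that ROR factors can reach, 2 were higher, Per2 (0.34) and Cry1 (0.35), with edgeR adjusted p = 0.124 and 0.126, and 2 were higher in each fit that left out a library, with 1 lower without AL replicate 2.

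At an unadjusted p below 0.05, 8.74% of all tested genes were higher and 11.6% lower, the background for each list that follows. Of 10 vitamin D and sex steroid pathway genes, 1 was higher and 1 lower at that p. These were Pgrmc1, a membrane-associated progesterone-binding protein (0.34), and Hsd17b4 (-0.22), with edgeR adjusted p = 0.146 and 0.125. The count of lower genes was 4 without IF replicate 2 and 2 without any 1 of the AL replicates, and that of higher genes 2 without AL replicate 2, with 1 called, or AL replicate 3. Of 12 other nuclear receptors, 1 was higher and 2 were lower, among them Nr4a1 (-0.42), with edgeR adjusted p = 0.157. The lower count was 4 without AL replicate 2 and 1 without AL replicate 1, IF replicate 1 or IF replicate 3, and the higher count was 0 without IF replicate 1, 2 or 3. Without AL replicate 1, 1 of these genes was called. Of 22 other coregulators, 4 were higher and 0 lower, among them Pprc1 (0.26) and Hdac3 (0.19), with edgeR adjusted p = 0.135 and 0.153 (18.2% of the list, against 8.74% of all tested genes). It was 1 higher and 2 lower without IF replicate 1, 2 higher and 1 lower without AL replicate 3, and 2 higher without IF replicate 2 or 3. It was 5 higher without AL replicate 2 and 3 higher without AL replicate 1, each with 0 lower. Of 30 Mediator subunits beside Med1, 1 was higher and 1 lower, Med12 (0.17) and the kinase gene Cdk19 (-0.44), with edgeR adjusted p = 0.201 and 0.0741, and the higher count was 0 in each fit that left out a library other than IF replicate 2.

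**Figure D5:**
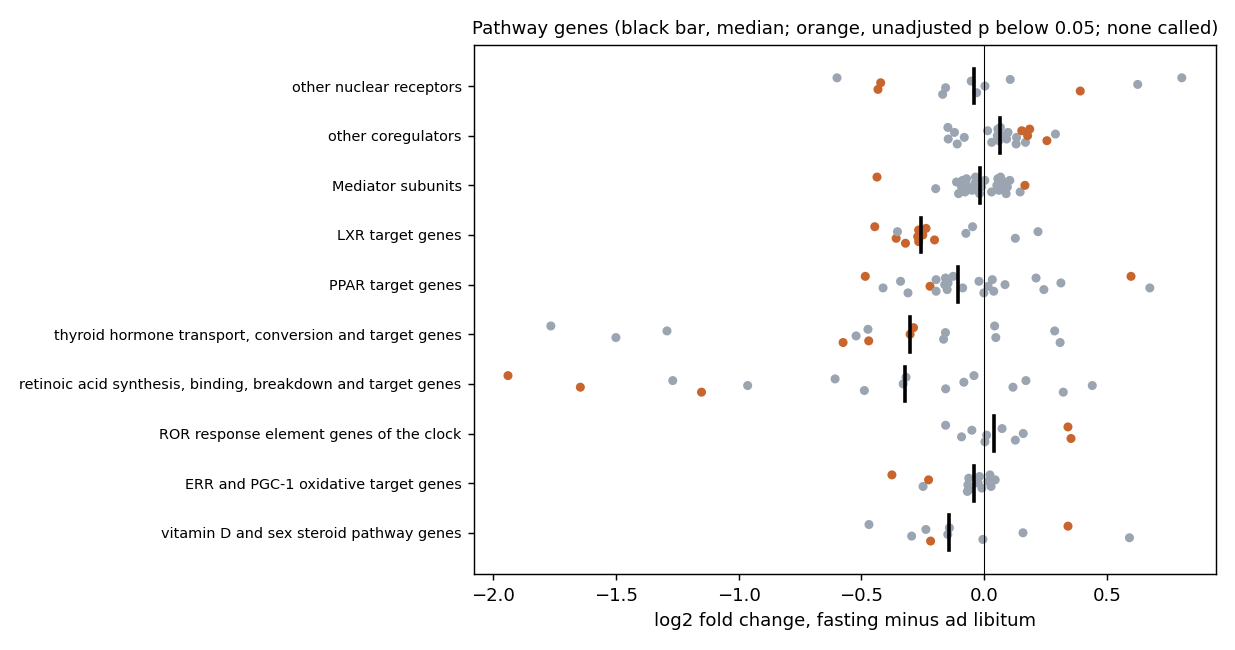
Log2 fold change (IF minus AL, x axis) of each tested gene in the 10 pathway lists; black bars are list medians and orange points have an unadjusted p below 0.05. No gene was called; LXR targets (median -0.26), thyroid hormone genes (-0.30) and retinoic acid genes (-0.32) lie lowest.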

How the data were processed

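Polyadenylated RNA was sequenced in 6 libraries. Per the labels' protocols, RNA came from substantia nigra lysate and libraries were made with a kit that keeps strand. The deposited table holds estimated counts, as the authors made it, in whole numbers. The tools named per the submitters' processing notes are Salmon and DESeq2 1.40.2, and the build GRCm39, with no roles. The sources used here do not give the Salmon version, annotation release or strand setting.

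Columns were matched to libraries by label, and 0 columns of values were left unused. No pair of libraries within a group was alike within counting noise (smallest chi-square per degree of freedom 8.19). Counts were filtered with filterByExpr, scaled with TMM and compared with edgeR 4.0.16 (R 4.3.3) by the two-sided quasi-likelihood test with robust shrinkage and no covariate. P-values were adjusted by Benjamini and Hochberg over 19109 genes. SEs are the log2 fold change over the square root of F, and 95% intervals use the test's degrees of freedom. Fits were tested on simulated data. The labels do not say whether equal replicate numbers share anything, so the main fit did not pair the libraries.

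Members and lists were chosen with earlier results of these data known. Library values are given for the 12 members of smallest p, then for others as said. From each list the 2 genes of smallest p are named, except some that are not reported here. Promoters are RefSeq's on GRCm38.p6. Transcript lengths and words of 31 bases shared between genes come from GENCODE M21, on GRCm38, another build than the files'. Alternatives were DESeq2 1.42.0, limma-voom (limma 3.58.1), RLE scaling, 2 filters, no robust shrinkage, a replicate block and leaving out each library.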

Additional observations from a re-analysis of the deposited data

How the results depend on the processing

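No alternative other than leaving out ad libitum replicate 1 called any of the 35 genes. The count of all genes called was 95, and it was 1395 with DESeq2, 32 with limma-voom, 9 without robust shrinkage and 285 with the replicate block, and from 0 to 1187 when 1 library was left out. Leaving out 1 library gave 0 or 1 member called, 0 to 11 members at an unadjusted p below 0.05 (7 with all libraries), 12 to 24 members without overlap (12 with all libraries) and a member median from -0.04 to 0.02. With fewer libraries, groups overlap less often. Without ad libitum replicate 1, 24 of the 35 genes did not overlap, a larger share than the 46.6% of all tested genes. In that fit 31.4% of the members had an unadjusted p below 0.05, against 27.4% of all tested genes. Without fasting replicate 1 these were 0% and 12.8%. Pathway genes called, a count added after the data were seen, numbered 10 with DESeq2, 1 with the replicate block and 0 to 12 with 1 library left out. Of all tested genes, DESeq2 called 7.26% and the replicate block 1.49%. The fit without ad libitum replicate 1, which gave the 12, called 6.18%.

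Deviations from the group mean, over all tested genes, correlated at 0.21, -0.04 and -0.11 between samples of the same replicate number. Between different numbers the correlations ran from -0.14 to 0.19. These values cannot show whether samples of the same number share a batch, and the labels do not say. With the replicate block, 0 members were called and 8 (22.9%) had an unadjusted p below 0.05, against 20.5% of all tested genes.

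For 16 members of small or library-driven difference the sign turned in 1 or more fits. Nr2e1 was at 0.0045 with limma-voom and 0.0037 with the replicate block, and Ncoa2 at -0.0028 with a mean count of at least 50, which left 33 members. With 1 library left out, log2 fold changes ran from -0.23 to 0.25 for Nr2e1, -0.054 to 0.044 for Ncoa2, -0.22 to 0.090 for Esrra, -0.022 to 0.065 for Rxra, -0.042 to 0.058 for Nr2c2, -0.090 to 0.15 for Nr2f6, -0.16 to 0.060 for Thra, -0.89 to 0.74 for Rxrg, -0.028 to 0.84 for Rorb, -0.17 to 0.086 for Ppara, -0.060 to 0.40 for Ppard, -0.043 to 0.071 for Pgr, -0.13 to 0.60 for Nr4a3, -0.043 to 0.092 for Rxrb, -0.012 to 0.11 for Ncor1 and -0.011 to 0.23 for Ppargc1b. The cause was not tested. The other 19 members kept their direction in every fit run. Vdr and Pparg had the fewest counts, and the filter at a mean count of at least 50 left both out. The part of depth in their values was not tested.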

Other observations

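Over all 6 libraries, ad libitum replicate 1 held the highest level of 12 of the 35 genes and ad libitum replicate 2 that of 10. Of all tested genes, 17.1% and 23.2% had their highest level in these libraries. Fasting replicate 2 held the highest level of 0 of the 35, against 12.6% of all tested genes. Among the genes highest in ad libitum replicate 1 were Esrra (76.5 CPM), Ppard (40.5 CPM) and Nr2f6 (28.5 CPM), and its thalamic marker sum was 1516 CPM. Thra stood at its lowest there, at 322 CPM, while Nr1d1, which overlaps it on the opposite strand over 5.17% of the Thra sequence, stood at its highest, at 111 CPM. These genes were picked after their values were seen.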
